A study of Homo sapiens with 6 samples.

Results

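The 10 genes described here encode ligands, receptors and inhibitors of the epidermal growth factor (EGF) receptor system: the ligands AREG, EREG, HBEGF, TGFA and BTC, the receptors EGFR, ERBB2 and ERBB3, and the inhibitors, or brakes, LRIG1 and ERRFI1. They were chosen by name, with earlier results of these data known. All 10 were found by exact symbol among the 43424 gene symbols of each count table. RNA was sequenced from 6 cultures of HepG2, an established human hepatocellular carcinoma line that the labels call wild type. Cells of 3 cultures were exposed to 10 µM tamarixetin for 24 h, a plant flavonol that is quercetin with an added O-methyl group, and the 3 control cultures of the same time have a treatment labelled None. The labels describe the cultures of a group as biological replicates, and no vehicle is named for the controls. Tamarixetin was added in medium with 1% serum, whereas cells were grown in 10% serum. The serum given to the controls during exposure is not stated, so an effect of the compound and one of a serum difference cannot be told apart in any comparison below.

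In this receptor system the ligands are made as membrane-bound precursors, and metalloproteases cut the soluble growth factor free. Ligand binding lets receptors pair and phosphorylate each other, and the adaptors that bind them pass the signal to Ras and the ERK kinases. ERBB2 has no known ligand and acts as a partner of the others, while ERBB3 has little kinase activity of its own and binds neuregulins. The brakes act back on the receptors: ERRFI1 (also called MIG6) blocks the kinase domain, and LRIG1 promotes receptor breakdown. In liver, the pathway is known for its part in regeneration, and AREG and TGFA are often expressed in liver tumours.

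Libraries held between 11980585 and 16168855 counts, with 18291 to 19003 genes detected. The libraries were made with a 3′ kit that yields about 1 fragment per transcript, so CPM, the count scaled to library size, is compared between genes without division by length. The 8 hepatocyte line markers (ALB, AFP, APOA1, APOB, TTR, SERPINA1, FGB and HNF4A) were all expressed, and their summed level ran from 7794 to 8007 CPM in tamarixetin libraries and from 13299 to 13817 CPM in control libraries. The 4 endothelial markers summed to at most 1.90 CPM in tamarixetin libraries and 1.42 CPM in control libraries, with KDR at 0 counts. The 4 blood cell markers summed to at most 1.03 CPM in tamarixetin libraries and 2.70 CPM in control libraries, with CD3E at 0 counts. The 5 fibroblast markers summed to between 25.8 and 28.5 CPM in tamarixetin libraries and between 29.7 and 32.3 CPM in control libraries, most of it COL1A1. The part of the lower hepatocyte marker level in the results below was not tested. Levels are those of bulk RNA, in which fewer cells with a transcript and less of it per cell cannot be told apart.

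With tamarixetin, the RNA of every ligand gene with enough counts to test rose, while receptor genes and brakes did not move as groups. AREG and EREG had the largest folds, at 4.86-fold and 5.31-fold, followed by HBEGF (3.15-fold) and TGFA (2.13-fold). Among receptors EGFR rose 1.40-fold, ERBB2 fell to 0.503 of its control level, and ERBB3 did not pass the test. ERRFI1 rose 2.55-fold and LRIG1 fell to 0.398 of its control level. Of the 9 members that passed the filter on low counts, 6 rose, beside 22.4% of the 13198 genes tested, and 2 fell, beside 21.3%, so that 8 changed, beside 43.7% of genes tested (edgeR's quasi-likelihood F test, p adjusted by the Benjamini-Hochberg, BH, method and under 0.05). The groups did not overlap in 8 of these 9 members, against 50.5% of genes tested. A called difference of at least 2-fold was found in 6 of the 9, against 6.08% of genes tested, with 5 higher (3.37% of genes tested) and 1 lower (2.70%). Because members were chosen with earlier results of these data known, these counts beside the shares are a description and no independent support. BTC did not pass the filter. EREG passed it only through its tamarixetin libraries, as its 10 counts in control replicate 3 lay under the limit for a library of that size. Its place among the tested, called and non-overlapping members thus depends on the group in which it was high.

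**Figure D1:**
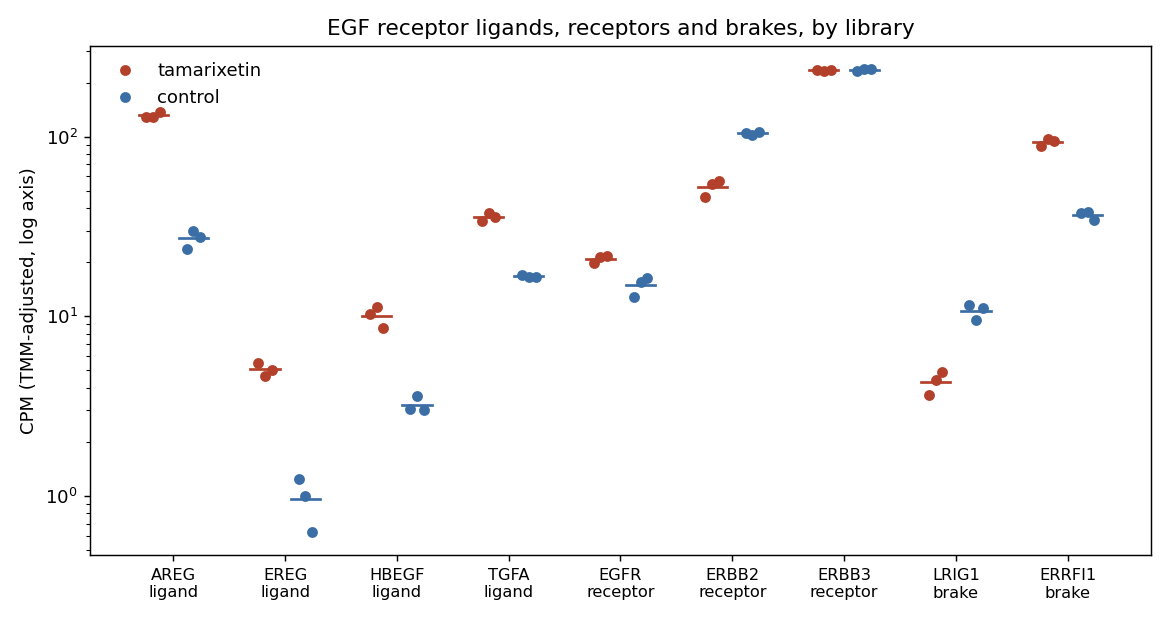
Level of each tested member in every library, in CPM on a log axis, with tamarixetin libraries at the left of each gene and control libraries at the right; points are libraries and short lines are means of 3. The groups are apart in all genes shown except ERBB3, and ERBB2 and LRIG1 are the ones lower with tamarixetin.

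AREG encodes amphiregulin, a ligand that binds EGFR alone among the receptors. It had 128, 129 and 137 CPM in the tamarixetin libraries, against 23.7, 29.8 and 27.8 CPM in the control libraries. Every tamarixetin library was thus far above every control library, and the libraries of each group lay close together. The means were 132 ± 4.73 CPM with tamarixetin and 27.1 ± 3.12 CPM in control (SD, n = 3 each), a log2 fold change of 2.28 (SE 0.065, BH-adjusted p = 5.77e-54 by edgeR).

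EREG encodes epiregulin, which binds EGFR and ERBB4. Its level was low, at 5.52, 4.63 and 5.03 CPM in the tamarixetin libraries, against 1.24, 1.00 and 0.627 CPM in the control libraries. These rest on 86, 64 and 61 counts with tamarixetin and 18, 12 and 10 counts in control. The groups did not overlap, but the few counts made the fold less precise than that of AREG (log2 fold change 2.41, SE 0.301, BH-adjusted p = 3.62e-11 by edgeR).

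AREG and EREG are neighbours on chromosome 4 with the same orientation. In the GRCh38.p14 annotation EREG spans 74365145 to 74388749 and AREG 74445136 to 74455005, a gap of 56.4 kb. EPGN, the gene of the ligand epigen, lies 48.4 kb before EREG and had 0 counts in all 6 libraries, and BTC lies 290 kb after AREG. MTHFD2L, a mitochondrial folate enzyme gene that is the next protein-coding gene before EPGN, had 14.7 CPM with tamarixetin and 16.9 CPM in control, and did not reach the threshold (log2 fold change -0.20, BH-adjusted p = 0.163 by edgeR). On the far side of BTC, PARM1 had 3 counts in tamarixetin and 2 counts in control libraries. Of the 3 protein-coding genes tested between MTHFD2L and PARM1, with MTHFD2L included, AREG and EREG were those that changed.

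The 250 bases before the RefSeq starts of AREG and EREG are shown because these neighbours rose by similar folds. Windows of 250 bases before to 50 after a start were searched on both strands for the core of the aryl hydrocarbon receptor element (GCGTG), the antioxidant element TGACNNNGC, the AP-1 site TGANTCA, the cyclic AMP response element (CRE) TGACGTCA and the TATA box TATAAA. The last of these motifs was added after the sequences had been seen. A match to the antioxidant element can share its first bases with one to AP-1. Capitals mark the matches in the sequences below, which read 5′ to 3′ on the gene's strand (RefSeq, GRCh38.p14, AREG chr4:74444886-74445135 plus strand, EREG chr4:74364895-74365144 plus strand).
AREG: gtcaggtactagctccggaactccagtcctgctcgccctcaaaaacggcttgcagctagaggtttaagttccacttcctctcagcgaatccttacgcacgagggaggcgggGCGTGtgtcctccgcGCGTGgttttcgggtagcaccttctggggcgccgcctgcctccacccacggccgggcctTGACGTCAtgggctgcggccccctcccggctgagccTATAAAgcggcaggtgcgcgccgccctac
EREG: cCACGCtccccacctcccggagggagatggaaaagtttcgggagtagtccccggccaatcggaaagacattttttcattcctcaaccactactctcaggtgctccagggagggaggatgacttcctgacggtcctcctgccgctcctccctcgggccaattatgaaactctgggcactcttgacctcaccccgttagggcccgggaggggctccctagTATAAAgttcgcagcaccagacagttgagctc

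The AREG window held 2 aryl hydrocarbon receptor cores, beginning 139 and 124 bases before the start, a CRE beginning 65 bases before it and a TATA box beginning 29 bases before it. The EREG window held a TATA box beginning 32 bases before the start and a core on the other strand at its far edge. Of 34943 RefSeq windows of this length, 36.5% held the aryl hydrocarbon receptor core, 13.3% the antioxidant element, 7.72% the AP-1 site, 1.84% the CRE and 11.6% the TATA box. A TATA box was thus common to both neighbours, and the CRE stood in the AREG window but not in that of EREG. Among the windows of the other members, the exact letters TATAAA were found in an EGFR window that lies within the gene. The aryl hydrocarbon receptor core was also found in windows of HBEGF, TGFA, BTC and LRIG1. AP-1 sites were found in windows of EGFR, ERBB2 and LRIG1, and the antioxidant element in windows of LRIG1. These matches are letters in a window and say nothing about binding in these cells.

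HBEGF encodes heparin-binding EGF-like growth factor, a ligand of EGFR and ERBB4. It had 10.3, 11.3 and 8.58 CPM in the tamarixetin libraries, against 3.04, 3.58 and 3.01 CPM in the control libraries. The groups were well apart (log2 fold change 1.66, SE 0.186, BH-adjusted p = 5.83e-13 by edgeR). The counts behind these levels were 160, 156 and 104 with tamarixetin and 44, 43 and 48 in control.

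TGFA encodes transforming growth factor alpha, which binds EGFR. It had 33.7, 37.4 and 35.8 CPM in the tamarixetin libraries, against 17.0, 16.6 and 16.6 CPM in the control libraries. The control libraries were almost equal, and all tamarixetin libraries exceeded them (log2 fold change 1.09, SE 0.094, BH-adjusted p = 1.48e-18 by edgeR). This was the smallest fold among the ligand genes tested. Of the lncRNA genes that overlap TGFA, LOC124907824 had the most counts, 19 in the tamarixetin and 16 in the control libraries.

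BTC, the gene of betacellulin, had 0, 3 and 0 counts in the tamarixetin libraries and 0 counts in each control library. Both groups were at or under 3 counts, the limit that a count of 0 allows for counting error, so no fold is given. A difference in BTC was not detectable at this depth.

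The summed RNA of the 5 ligand genes was 178, 183 and 186 CPM in the tamarixetin libraries, against 45.0, 51.0 and 48.0 CPM in the control libraries, a ratio of means of 3.80. AREG made up most of it in every library. Its share was 72.1% ± 1.40 with tamarixetin and 56.3% ± 3.18 in control (SD, n = 3 each), while that of TGFA was 19.5% ± 0.816 with tamarixetin and 35.0% ± 2.66 in control. Without AREG, the sum was 50.8 ± 2.36 CPM with tamarixetin and 20.9 ± 0.568 CPM in control, a ratio of 2.43. Of these sums and shares, each stands as a description of the chosen genes, with no test.

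**Figure D2:**
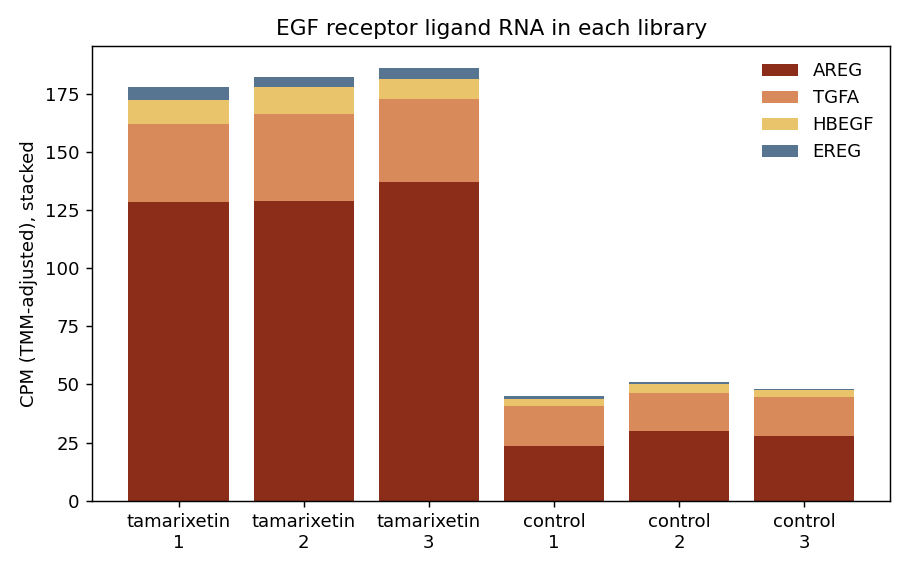
RNA of the ligand genes in each library, stacked, in CPM, with tamarixetin libraries at the left and control libraries at the right. The stacks reach 178 to 186 CPM with tamarixetin and 45.0 to 51.0 CPM in control, and AREG is the largest layer in all 6; BTC, at no more than 0.217 CPM, is not drawn.

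EGFR encodes the receptor that all 5 of these ligands can bind. It had 19.8, 21.3 and 21.5 CPM in the tamarixetin libraries, against 12.9, 15.4 and 16.4 CPM in the control libraries. The groups did not overlap, though the highest control lay not far under the lowest tamarixetin library. The log2 fold change was 0.49 (SE 0.111, BH-adjusted p = 1.54e-04 by edgeR).

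EGFR-AS1, an antisense gene within EGFR, had 584 counts where EGFR had 864 in the tamarixetin libraries, and 564 where EGFR had 632 in the control libraries. Its level was 14.1 ± 0.191 CPM with tamarixetin and 13.4 ± 1.06 CPM in control (SD, n = 3 each). It did not reach the threshold (log2 fold change 0.077, BH-adjusted p = 0.653 by edgeR). The strand setting of the counting is not given in the sources used here, so reads of this pair cannot be told apart with certainty, and the level of EGFR is uncertain to that extent.

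ERBB2 encodes the receptor also known as HER2, the preferred partner of the other receptors. It had 46.4, 54.6 and 56.9 CPM in the tamarixetin libraries, against 105, 102 and 106 CPM in the control libraries. The groups were far apart (log2 fold change -0.99, SE 0.060, BH-adjusted p = 7.66e-28 by edgeR). The 3′ end of ERBB2 on chromosome 17 overlaps MIEN1, a gene of the ERBB2 amplicon of breast tumours, by 149 bases. MIEN1 moved the other way, with 59.8 ± 1.46 CPM in tamarixetin and 45.7 ± 2.02 CPM in control libraries (SD, n = 3 each, log2 fold change 0.38, BH-adjusted p = 9.50e-07 by edgeR). Reads in the shared bases could be counted in either gene or in none.

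ERBB3 was the most abundant of the 10 in both groups and was the member whose groups overlapped among those tested. It had 236, 232 and 236 CPM in the tamarixetin libraries, against 233, 238 and 237 CPM in the control libraries. The log2 fold change was -0.0080 (SE 0.040, BH-adjusted p = 0.892 by edgeR), with a 95% interval of 1.96 SE from -0.086 to 0.070. The sign was positive when libraries were scaled by size alone (0.027) and without tamarixetin replicate 2 (0.0035).

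The ratios between receptor transcripts differed between the groups. The ratio of ERBB2 to ERBB3 CPM was 0.225 ± 0.024 with tamarixetin and 0.442 ± 0.012 in control, and that of ERBB2 to EGFR was 2.52 ± 0.153 with tamarixetin and 7.08 ± 0.949 in control (SD, n = 3 each). Summed over the 3 receptor genes, the level was 308 ± 6.24 CPM with tamarixetin and 355 ± 4.41 CPM in control. These ratios and sums are descriptions without a test.

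**Figure D3:**
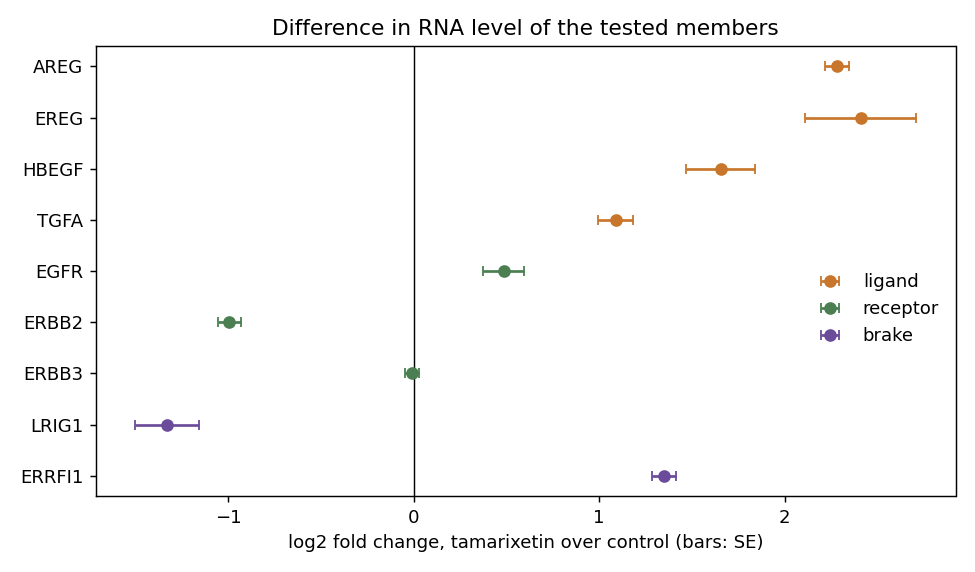
Log2 fold change of each tested member, tamarixetin over control, from edgeR, with bars of 1 SE and colours for ligands, receptors and brakes. The ligand genes lie between 1.09 and 2.41, the receptor genes between -0.99 and 0.49, and the brakes at -1.33 and 1.35.

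ERRFI1, an inducible inhibitor that binds the EGF receptor kinase from within the cell, had 88.8, 96.5 and 94.9 CPM in the tamarixetin libraries, against 37.7, 38.0 and 34.5 CPM in the control libraries. The groups were far apart and their spread was small (log2 fold change 1.35, SE 0.064, BH-adjusted p = 2.29e-35 by edgeR). ERRFI1-DT, a noncoding gene that starts on the other side of the ERRFI1 promoter and was looked up after the values were seen, had 5.52, 5.72 and 2.80 CPM in the tamarixetin libraries, against 3.11, 2.75 and 3.26 CPM in the control libraries. Its lowest tamarixetin library lay within the range of the controls, although the gene passed the test (log2 fold change 0.63, SE 0.242, BH-adjusted p = 0.0266 by edgeR).

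LRIG1, a membrane protein with leucine-rich repeats that lowers the amount of EGF family receptors, had 3.66, 4.41 and 4.87 CPM in the tamarixetin libraries, against 11.5, 9.50 and 11.2 CPM in the control libraries. All tamarixetin libraries lay under all controls (log2 fold change -1.33, SE 0.172, BH-adjusted p = 1.16e-10 by edgeR). The 3′ end of LRIG1 on chromosome 3 overlaps SLC25A26, a mitochondrial carrier gene, by 131 bases. As for ERBB2 and MIEN1, reads in the shared bases could be counted in either gene or in none. The level of LRIG1 is uncertain to that extent. SLC25A26 did not pass the test, at 31.7 CPM with tamarixetin and 33.3 CPM in control (log2 fold change -0.081, BH-adjusted p = 0.481 by edgeR).

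The ratio of ERRFI1 to LRIG1 CPM was 21.9 ± 2.39 in the tamarixetin libraries and 3.45 ± 0.482 in the control libraries (SD, n = 3 each). The 250 bases before the starts of LRIG1 and ERRFI1 are shown because these brakes moved in opposite directions (RefSeq, GRCh38.p14, LRIG1 chr3:66501122-66501371 minus strand, ERRFI1 chr1:8026310-8026559 minus strand). Capitals mark matches to the same motifs.
LRIG1: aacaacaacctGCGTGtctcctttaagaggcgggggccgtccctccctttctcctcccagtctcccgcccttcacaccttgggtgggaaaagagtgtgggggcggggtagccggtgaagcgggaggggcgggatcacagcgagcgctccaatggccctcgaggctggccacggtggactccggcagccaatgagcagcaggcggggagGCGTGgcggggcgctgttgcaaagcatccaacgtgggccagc
ERRFI1: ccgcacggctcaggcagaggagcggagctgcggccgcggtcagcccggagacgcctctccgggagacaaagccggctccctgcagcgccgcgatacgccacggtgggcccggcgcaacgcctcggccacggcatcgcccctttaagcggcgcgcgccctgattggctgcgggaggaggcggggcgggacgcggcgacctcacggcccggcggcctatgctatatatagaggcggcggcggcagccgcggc

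The LRIG1 window held 2 aryl hydrocarbon receptor cores, beginning 239 and 42 bases before the start, and the ERRFI1 window held none of the motifs searched. The ERRFI1 sequence does hold tatatata shortly before the start, which the exact search for TATAAA does not match. Looser forms of the TATA box were not searched. RefSeq gives 4 windows for LRIG1, and the one shown is that of the outermost start. Windows of other LRIG1 starts held further aryl hydrocarbon receptor cores, matches to the antioxidant element and AP-1 sites. Which starts these cells used cannot be read from 3′ counts.

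The order of the 10 genes by level differed between the groups. With tamarixetin, ERBB3 was followed by AREG, ERRFI1, ERBB2, TGFA, EGFR, HBEGF, EREG, LRIG1 and BTC. In control, ERBB3 was followed by ERBB2, ERRFI1, AREG, TGFA, EGFR, LRIG1, HBEGF, EREG and BTC. Neighbours in each order were apart in all 3 libraries of the group, except EREG and LRIG1 with tamarixetin, where the lowest EREG level of 4.63 CPM lay under the highest LRIG1 level of 4.87 CPM. TGFA and EGFR in control were barely apart, with a lowest TGFA level of 16.6 CPM and a highest EGFR level of 16.4 CPM. The order of that pair is therefore not certain.

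The nearest profiles were sought for the member with the smallest p of each role, by the Euclidean distance between log2 CPM values centred on each gene's mean over the 6 libraries, among the 8646 genes whose mean reached 10 CPM. For AREG they were the vasoconstrictor gene EDN1 (distance 0.15), the membrane protein gene CD109 (0.17) and the actin-binding protein gene PALLD (0.18). For ERBB2 they were MVD, of the mevalonate pathway (0.12), PMM1, a phosphomannomutase gene (0.16), and the zinc transporter gene SLC39A5 (0.17). For ERRFI1 they were the small MAF gene MAFG (0.13), the adhesion scaffold gene NEDD9 (0.14) and the receptor gene GPR157 (0.15). With 2 groups this distance chiefly finds genes of a similar fold change.

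Genes of the pathway outside the 10 were grouped by role in lists written with earlier results of these data known. The other ErbB ligands and the fourth receptor (EGF, EPGN, NRG1, NRG2, NRG3, NRG4 and ERBB4) had too few counts to be tested. NRG1, a ligand of ERBB3 and ERBB4, had 21 counts in the tamarixetin and 15 counts in the control libraries, and each of the others had at most 4 counts in a group. Across all genes tested, the median log2 fold change was 0.00038, and 22.4% were called higher and 21.3% lower, 43.7% in either direction. The counts of the lists below are to be read against these shares.

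Of 9 genes of ligand shedding, 7 were tested, 4 rose and 1 fell, beside 22.4% higher and 21.3% lower over all genes tested, with a median log2 fold change of 0.23. ADAM17, the main protease that releases AREG, EREG, HBEGF and TGFA, rose by a log2 fold change of 0.23 (SE 0.057), with 83.2 ± 0.690 CPM in tamarixetin and 70.8 ± 2.30 CPM in control libraries. RHBDF2, which encodes the ADAM17 partner iRhom2, rose by 0.56 (SE 0.082), the metalloprotease gene ADAM9 by 1.01 (SE 0.070) and NRDC, an enhancer of shedding, by 0.24 (SE 0.057). FRMD8, whose product stabilises the iRhom complex, was the gene that fell (-0.15, SE 0.056, BH-adjusted p = 0.0204 by edgeR). That call was lost with scaling by library size alone and without tamarixetin replicate 3, control replicate 1 or control replicate 2.

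Among 14 other brakes of receptor and Ras signalling, 13 were tested, 6 rose and none fell, with a median log2 fold change of 0.27. Over all genes tested, 22.4% were higher and 21.3% lower. The 6 of 13 called in either direction were near the 43.7% of all genes tested, but all 6 were higher. SPRED1, an inhibitor of Raf activation, rose by 1.02 (SE 0.089), with 39.9 ± 0.629 CPM in tamarixetin and 19.8 ± 2.11 CPM in control libraries. SPRY4, a Sprouty inhibitor, rose by 0.92 (SE 0.136), the ubiquitin ligase gene CBL, which tags EGFR for breakdown, by 0.30 (SE 0.080) and SOCS4, which also lowers EGFR, by 0.54 (SE 0.146). The relatives of LRIG1 did not follow it past the threshold: LRIG2 had a log2 fold change of -0.25 (SE 0.161) and LRIG3 of 0.082 (SE 0.314).

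Of 16 adaptors and kinases between receptor and ERK, 16 were tested, 5 rose and 3 fell, and the median of 0.042 was near 0. The 8 of 16 called were near the share of 43.7% over all genes tested. SOS1, the Ras activator recruited by GRB2, stood far from the rest, at 548 ± 22.2 CPM with tamarixetin and 73.9 ± 3.07 CPM in control (SD, n = 3 each). The phosphatase gene PTPN11 rose by 0.27 (SE 0.060). The genes that fell were MAPK3, which encodes ERK1 (-0.31, SE 0.071), the docking protein gene GAB1 (-0.42, SE 0.137) and GRB2 (-0.13, SE 0.043). Without tamarixetin replicate 2, the number that fell was 1.

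ERK output genes, which are commonly read as a sign of ERK activity, rose in 7 of 9 tested and fell in none, beside 22.4% higher and 21.3% lower over all genes, with a median log2 fold change of 0.40; SPRY2 and SPRY4 also stand among the brakes. DUSP6, the phosphatase gene of ERK feedback, had 145 ± 6.68 CPM in tamarixetin and 69.1 ± 4.56 CPM in control libraries. CCND1 (0.40, SE 0.037) and PHLDA1 (0.33, SE 0.041) rose less, while ETV4 (0.083, SE 0.052) and ETV5 (-0.019, SE 0.054) did not pass the test. Of 10 genes of receptor sorting, 5 rose and 1 fell, beside 43.7% of all genes tested called in either direction, with a median of 0.20. RAB7A, a GTPase of late endosomes, rose by 0.41 (SE 0.049), HGS, which sorts tagged receptors, by 0.48 (SE 0.065) and the EPS15 relative EPS15L1 by 0.27 (SE 0.085), and the deubiquitinase gene USP8 fell (-0.14, SE 0.047). Without tamarixetin replicate 2, 3 of the 10 were higher and 0 lower.

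**Figure D4:**
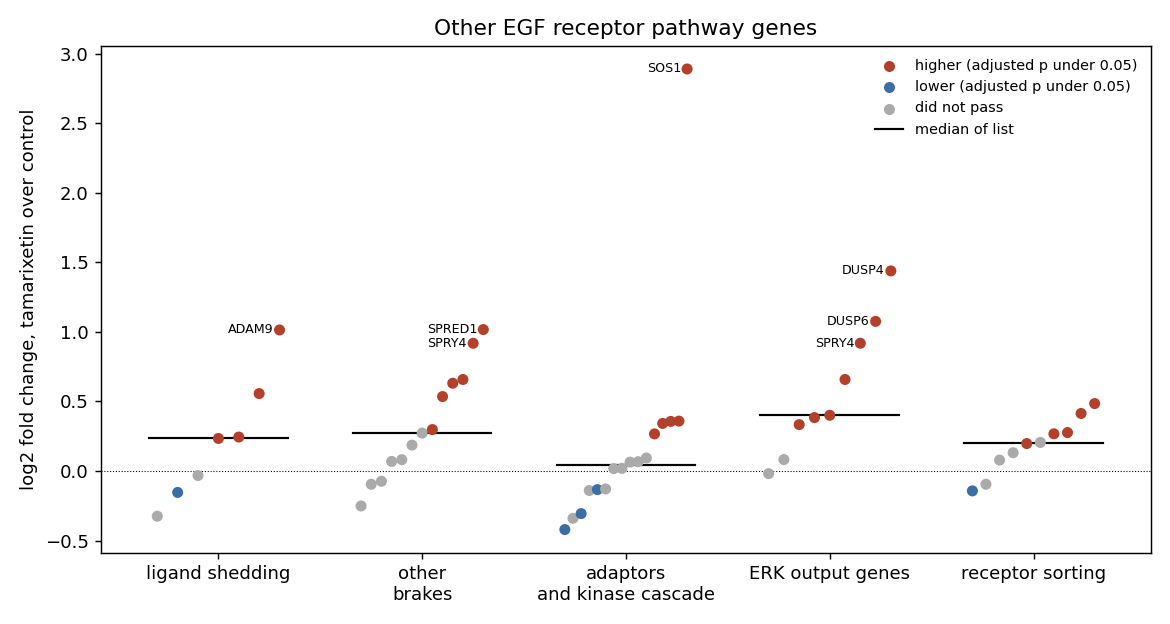
Log2 fold change, tamarixetin over control, of each tested gene in 5 lists of the EGF receptor pathway, sorted within a list; red points are higher, blue points lower and grey points did not pass, and black lines are list medians. SOS1 stands apart at 2.89, and the medians run from 0.042 to 0.40.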

How the data were processed

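The authors deposited 1 table of raw, unscaled counts by gene symbol for each library. The submitters' processing notes name the GRCh38 genome and the tools featureCounts 2.0.6, STAR 2.7.10b and fastp 0.23.1, and per the labels' protocols libraries came from a Lexogen QuantSeq 3′ kit. The sources used here do not give the annotation release, the strand setting or whether molecular identifiers were used. All counts were fitted together with edgeR 4.0.16 in R 4.3.3: filterByExpr, TMM factors, a quasi-likelihood F test of tamarixetin over control with group as the only term, and Benjamini-Hochberg adjustment over the 13198 genes tested (threshold 0.05, no minimum fold). SE is the log2 fold change over the square root of F, and CPM uses TMM-adjusted library sizes. On simulated counts of this comparison (13037 genes), sets of 50 genes were altered, and the test found 58% of those at 1.25-fold, 72% at 1.5-fold, 94% at 2-fold and 98% at 3-fold, with 3 false calls. The simulation gave every gene the same dispersion and altered far fewer genes than were called here. These rates need not hold for the real data. Pairs of libraries differed beyond sampling noise, so none was treated as a copy. Gene positions, overlaps and sequences come from RefSeq (GRCh38.p14), in which 42739 of the symbols were found; 9 of the 10 genes had a promoter window. Members and lists were chosen with earlier results of these data known. All members are named, with up to 4 genes of smallest p per list, called genes that moved against their list, and 3 nearest profiles per role; others named were chosen after their values were seen. A gene that this rule takes is not reported here. Alternatives covered scaling, low-count filters, the replicate block, leaving out each library, DESeq2 1.42.0, limma-voom (limma 3.58.1), an adjusted p of 0.01 and a minimum fold of 1.2.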

Additional observations from a re-analysis of the deposited data

How the results depend on the processing

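The 8 called members kept their direction and stayed past the threshold under every alternative that tested them. The count of members higher was 6 throughout, except 5 with at least 5 CPM in 3 libraries, where EREG was not tested, and the count lower was 2 throughout. ERBB3, which was not called, had a positive value of 0.027 when scaled by library size alone, and from -0.021 to 0.0035 when 1 library was left out, positive without tamarixetin replicate 2. Over the alternatives, the log2 fold change ran from 2.19 to 2.34 for AREG, 2.15 to 2.66 for EREG, 0.38 to 0.56 for EGFR, -1.05 to -0.90 for ERBB2 and -1.42 to -1.22 for LRIG1. A minimum fold of 1.2 reduced all calls to 2560, those of ligand shedding to 2 higher and 0 lower, of the kinase cascade to 1 higher and 0 lower, and of receptor sorting to 2 higher and 0 lower. Over all alternatives, 4 to 6 of the other brakes and 5 to 7 of the ERK output genes were higher, and 0 were lower. Both counts were smallest at the minimum fold of 1.2. At an adjusted p of 0.01, 0 genes of ligand shedding were lower and 3 of receptor sorting higher. Scaling by library size alone left 0 lower in ligand shedding and 0 lower in receptor sorting, and upper quartile scaling gave 2 lower in receptor sorting. Leaving out 1 library at a time gave 5155 to 5367 calls in all, 0 to 2 lower in ligand shedding, 1 to 4 lower in the kinase cascade, 3 to 5 higher in receptor sorting and 0 to 1 lower there. The cause of these shifts was not tested. Same-numbered libraries did not deviate together (r from -0.041 to -0.0089 over genes). This gave no sign of pairing by number, but such a check cannot exclude it. With the replicate block 5735 genes were called, and the counts of members stayed at 6 higher and 2 lower. Counts of 10 to 18 in control limit the precision of EREG, and BTC had too few counts to be tested at this depth.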
